A study of Mus musculus with 8 samples.

Results

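A set of 10 genes that mark microglia, the resident macrophages of the brain, was followed between young-adult and aged mouse brain: Csf1r, Cx3cr1, P2ry12, Tmem119, Aif1, Trem2, Tyrobp, Fcer1g, Cd68 and Laptm5. They were chosen by name, as markers of the homeostatic and of the activated state, with earlier results of these data known. All 10 were found among the 22430 genes of the count table. The libraries came from brain hemispheres of male C57Bl/6JRj mice, a wild-type inbred strain, with 4 mice aged 6 months (6m) and 4 aged 24 months (24m). No treatment or engineered allele is given for either age, and each library is a single mouse. The spread between libraries therefore holds differences between animals together with counting error and library preparation. Native RNA was sequenced on Oxford Nanopore (ONT) flow cells, in which each read is a single RNA strand.

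Microglia are the macrophages that live in the brain parenchyma. CSF1R, the receptor for CSF1 and IL-34, keeps them alive, and P2RY12, CX3CR1 and TMEM119 are used to recognise them at rest. TREM2, a receptor for lipids and lipoproteins, has no signalling tail of its own and signals through TYROBP (DAP12), whose ITAM motif recruits the kinase SYK. FCER1G carries the same kind of motif for Fc receptors, CD68 is a lysosomal membrane glycoprotein of phagocytes, LAPTM5 is a lysosomal membrane protein of blood-derived lineages, and AIF1 (IBA1) is the actin-binding protein most used to stain microglia.

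The promoters of many myeloid genes are bound by PU.1, the product of Spi1, which recognises a purine-rich core written GAGGAA. These letters and their reverse complement TTCCTC were therefore looked up in windows from 250 bases before to 50 bases after the start of each gene, taken from RefSeq on GRCm38.p6. Promoter entries were matched for 7 of the 10 genes, all but Csf1r, Tmem119 and Tyrobp. The core was present in 4 of these 7 and in 28.3% of all 32851 windows of the same length. The longer form GAGGAAGT was present in 0 of the 7 and in 3.2% of all windows. A member was counted once if any of its windows held the letters, whereas the shares over all windows count each window. The stretches of 30 bases around the matches are shown 5′ to 3′ on the strand of the gene, with the core in capitals, because they place the match relative to the start of each gene.
Laptm5 (chr4:130913266-130913295, plus strand): gcagcctgtggcTTCCTCttttttgttctg
Trem2 (chr17:48346349-48346378, plus strand): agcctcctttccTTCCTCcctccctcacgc
Aif1 (chr17:35176053-35176082, minus strand): tagccgtggtgataggcacccagTTCCTCc
Cd68 (chr11:69666378-69666407, minus strand): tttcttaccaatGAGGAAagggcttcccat
The match lay 38 to 33 bases before the start in Laptm5, 40 to 35 in Trem2 and 7 to 2 in Aif1, in each case on the strand opposite to the gene. In Cd68 it lay 225 to 220 bases before the start, on the strand of the gene. A match of letters is a description of the window and is not a measured binding site.

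Library totals were 573152 to 843706 counts at 6m and 660398 to 1255424 counts at 24m. The 10 genes together held 143 to 482 counts per library, which sets the precision of every value below. Levels are given as CPM, the counts per 1000000 counts of a library after TMM scaling, so a single count is worth 0.767 to 1.81 CPM depending on the library. The age comparison used the quasi-likelihood test of edgeR on all 9375 genes with a mean count over 5. To be called changed, a gene needed an adjusted p (Benjamini-Hochberg) no higher than 0.05 and a log2 fold change (log2FC, 24m over 6m) whose absolute value was 0.58 or more, here termed the fold minimum.

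Laptm5, Tmem119 and Tyrobp were higher at 24m, and no member was lower. Of the 10 genes, 8 passed the count filter. The 3 calls among these 8 compare with 10.3% of all tested genes called higher and 4.17% called lower. As the members were chosen with earlier results of these data known, the shares in this paragraph are a description and not a test. In the same 3 genes every 24m library lay above every 6m library, an arrangement found for 11.1% of all tested genes. The reverse arrangement, every 24m library below every 6m library, was found for 9.96% of tested genes and for 0 of the 8. The other 5 tested genes were not called, 4 of them with a positive log2FC and Aif1 with a value close to 0. The median log2FC of the 8 was 0.48, beside -0.0034 over all tested genes. None of the 8 was called lower by edgeR, DESeq2 or limma-voom, and at an unadjusted p under 0.05 the edgeR test had 5 of them higher and 0 lower, beside 18.3% and 16% of all tested genes.

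The summed level of the 10 genes ranged from 232 to 275 CPM in the young libraries and from 356 to 422 CPM in the aged ones, or 258 ± 18.6 and 387 ± 29.9 CPM (SD, n = 4 each). The age groups did not overlap in this sum. As a share of all counts, the 10 genes made up 0.0226% to 0.0264% of each 6m library and 0.0379% to 0.0420% of each 24m library. The 95% exact binomial intervals (Clopper-Pearson) reached at most 0.0301% at 6m and began at 0.0339% or above at 24m. They cover counting error only. In RNA from whole tissue, more microglia and more of these RNAs per microglial cell cannot be told apart.

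**Figure D1:**
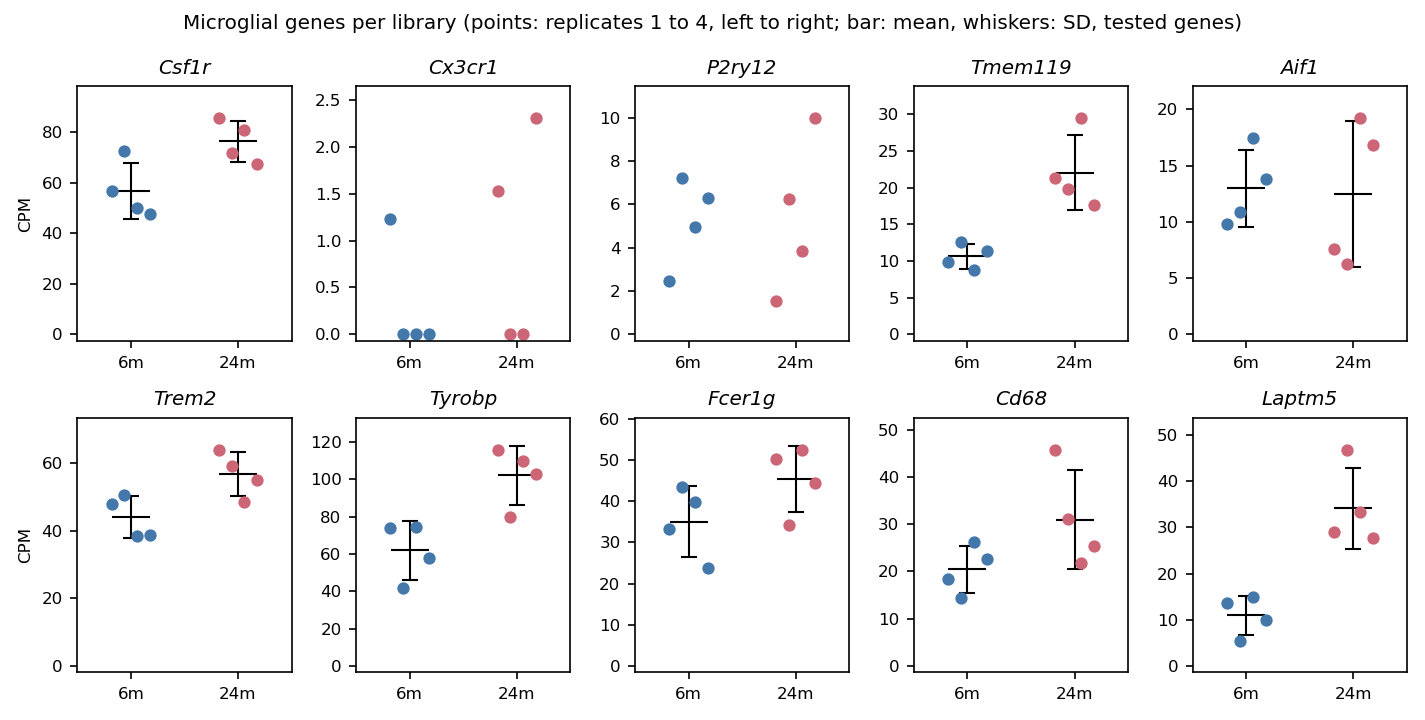
CPM (vertical axis, a separate linear scale for each gene, starting near 0) of the 10 microglial genes in the 6m (blue) and 24m (red) libraries, with replicates 1 to 4 from left to right and, for the 8 tested genes, the mean as a bar and the SD as whiskers. The 24m points lie above all 6m points in Laptm5, Tmem119 and Tyrobp and overlap with them in the other 7 genes.

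Laptm5 encodes a lysosomal membrane protein that binds ubiquitin ligases. The gene (ENSMUSG00000028581) lies on GRCm39 chr4:130638161-130663452, plus strand, and its canonical transcript has 8 exons. Its level was 13.5, 5.43, 14.9 and 10.1 CPM in the 6m replicates 1 to 4 and 29.0, 46.8, 33.3 and 27.6 CPM in the 24m replicates 1 to 4. The lowest 24m library was therefore well above the highest 6m library. The 6m mean was 11.0 ± 4.24 CPM and the 24m mean 34.2 ± 8.76 CPM (SD, n = 4). The log2FC was 1.57 (SE 0.29, 95% interval 0.98 to 2.16) with an adjusted p of 0.000393 (edgeR), a 2.97-fold difference. The 6m side rests on 3 to 12 counts per library. Laptm5 made up 2.10% to 5.43% of the summed CPM of the 10 genes at 6m and 6.86% to 13.2% at 24m, so it took a larger part of the sum in every aged library. No other member had a share of the sum that was separated by age in this direction.

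Tmem119, a membrane protein used to tell microglia from blood-derived macrophages, is a gene of 2 exons on chr5:113931781-113938577, minus strand (ENSMUSG00000054675). It was measured at 9.85, 12.7, 8.71 and 11.3 CPM in the 6m libraries and at 21.3, 19.8, 29.4 and 17.6 CPM in the 24m libraries. All 24m libraries stood above all 6m libraries. The values rest on 7 to 9 counts per library at 6m and 14 to 23 at 24m, too few to read the narrow 6m range as stability. The log2FC was 1.03 (SE 0.30, 95% interval 0.41 to 1.66) with an adjusted p of 0.0165 (edgeR). This call depended on the test: by DESeq2 the log2FC was 1.06 with an adjusted p of 0.0609, and over all alternatives the adjusted p ranged from 0.00497 to 0.0958. It was also lost without 6m replicate 3 (log2FC 0.95, adjusted p 0.0541, edgeR) and without 24m replicate 3 (log2FC 0.88, adjusted p 0.0731, edgeR).

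Tyrobp encodes the ITAM adaptor through which TREM2 signals. It lies on chr7:30113170-30117010, plus strand (ENSMUSG00000030579), and has 5 exons. Its level was 73.9, 41.6, 74.7 and 57.8 CPM at 6m and 115.8, 80.1, 110.1 and 103 CPM at 24m. The highest 6m libraries and the lowest 24m library were close to each other, but the ages did not overlap. The means were 62.0 ± 15.7 CPM and 102 ± 15.7 CPM (SD, n = 4), with a log2FC of 0.68 (SE 0.17, 95% interval 0.34 to 1.03) and an adjusted p of 0.00535 (edgeR). Without 6m replicate 2, the lowest library, the log2FC was 0.57 with an adjusted p of 0.0216 (edgeR), under the fold minimum. Over all alternatives the adjusted p of Tyrobp ranged from 0.000393 to 0.0216.

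The receptors that stand beside Tyrobp in the membrane were not called. Trem2 (chr17:48653429-48661175, plus strand, 5 exons) was measured at 48.0, 50.6, 38.6 and 38.9 CPM at 6m and at 64.0, 59.3, 48.6 and 55.2 CPM at 24m. Only 24m replicate 3 fell within the range of the 6m libraries. Its log2FC was 0.37 (SE 0.17, 95% interval 0.03 to 0.72) with an adjusted p of 0.114 (edgeR).

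Csf1r, the survival receptor, is the longest of the member transcripts, with 21 exons on chr18:61229714-61266535, plus strand. It was measured at 56.6, 72.3, 49.8 and 47.7 CPM at 6m and at 85.4, 71.7, 80.6 and 67.5 CPM at 24m. The groups overlapped through 6m replicate 2, which was above 24m replicates 2 and 4. The log2FC was 0.44 (SE 0.16, 95% interval 0.10 to 0.77) with an adjusted p of 0.0556 (edgeR), and over the alternatives the adjusted p ranged from 0.0184 to 0.149 while the log2FC stayed under the fold minimum in all of them, at 0.37 to 0.56. Csf1r shares 1461 exon bases with Hmgxb3, a gene on the opposite strand, whose log2FC was 0.53 (adjusted p 0.132, edgeR). Whether the counting used strand is not stated, so reads in these shared bases cannot be assigned with certainty.

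Fcer1g and Cd68 were higher on average at 24m, but their libraries overlapped. Fcer1g (chr1:171057141-171062219, minus strand), the common ITAM-bearing gamma chain of Fc receptors, ranged from 23.9 to 43.4 CPM at 6m and from 34.3 to 52.5 CPM at 24m, with a log2FC of 0.37 (SE 0.20, 95% interval -0.04 to 0.79, adjusted p 0.196, edgeR). Cd68 (chr11:69555037-69557067, minus strand) was measured at 18.5, 14.5, 26.1 and 22.6 CPM at 6m and at 45.7, 31.2, 21.8 and 25.3 CPM at 24m. Its 24m spread (SD 10.6 CPM) was set largely by replicate 1, and the log2FC was 0.53 (SE 0.26, 95% interval -0.01 to 1.06, adjusted p 0.153, edgeR). For both genes the interval holds 0 as well as differences above the fold minimum.

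Aif1 (chr17:35387384-35395053, minus strand) had 9.85, 10.9, 17.4 and 13.8 CPM at 6m and 7.62, 6.24, 19.2 and 16.9 CPM at 24m. The aged libraries held both the lowest and the highest value, with replicates 1 and 2 low and replicates 3 and 4 high. The log2FC was -0.03 (SE 0.37, 95% interval -0.79 to 0.72, adjusted p 0.964, edgeR), and its sign turned in some alternatives. With 5 to 22 counts per library, this interval leaves room for a difference in either direction that is larger than the fold minimum.

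Cx3cr1, the fractalkine receptor, and P2ry12, the purinergic receptor that guides microglial processes to ATP, were below the count filter. Cx3cr1 (chr9:119877749-119898945, minus strand) had 1, 0, 0 and 0 counts at 6m and 1, 0, 0 and 3 counts at 24m, so no difference was detectable at this depth. With no count filter it was tested and not called (adjusted p 0.585, edgeR). A count of 0 allows up to 3 counts, or 3.73 to 5.43 CPM in the 6m libraries at 0 and 3.12 to 3.84 CPM in the 24m libraries at 0. P2ry12 (chr3:59123682-59170429, minus strand) had 2, 4, 4 and 5 counts at 6m and 1, 6, 3 and 13 counts at 24m, or 5.24 ± 2.07 and 5.39 ± 3.61 CPM (SD, n = 4). The groups overlapped over nearly their whole range. With the filter set to a total count over 5, P2ry12 had a log2FC of 0.27 (adjusted p 0.793, edgeR), and over its 4 alternatives the adjusted p ranged from 0.494 to 0.990. P2ry12 shares 294 exon bases with Med12l on the opposite strand, which had 19 counts in all at 6m and 4 at 24m, or 6.19 ± 4.22 and 1.10 ± 1.48 CPM (SD, n = 4), with every 24m library below every 6m library. How reads in the shared bases were assigned is not stated. The widely used resting markers were thus split by level, with Tmem119 among the called genes and P2ry12 and Cx3cr1 under the count filter.

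**Figure D2:**
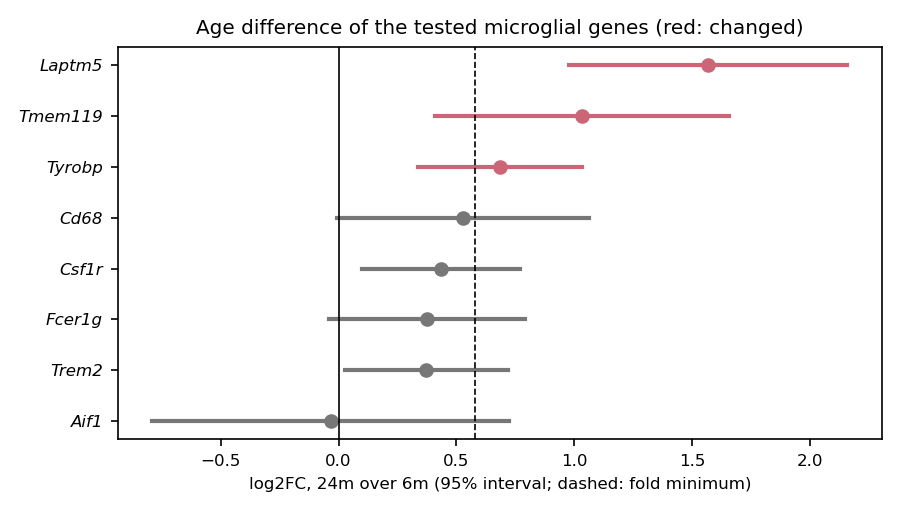
log2FC of the 8 tested microglial genes (horizontal axis, 24m over 6m, log2 scale) from edgeR, with 95% intervals; the dashed line marks the fold minimum of 0.58 and red marks the genes called changed. Laptm5 had the largest value at 1.57, and the interval of Aif1 spans 0 on both sides.

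The members differed widely in level. In CPM, in which each read counts once whatever its length, Tyrobp was highest at 6m with a mean of 62.0, followed by Csf1r at 56.6, Trem2 at 44.0, Fcer1g at 35.1, Cd68 at 20.4, Aif1, Laptm5 at 11.0, Tmem119 at 10.6, P2ry12 at 5.24 and Cx3cr1 at 0.308. The ranges over the 4 libraries overlapped between each gene and the next in this order, except for Tmem119 with P2ry12 and P2ry12 with Cx3cr1. At 24m the first 4 places were the same, and Laptm5 came next at 34.2 CPM, above Cd68 at 31.0, Tmem119 at 22.0 and Aif1. At that age only Csf1r and Trem2 were separated among neighbours.

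The order changed when the levels were divided by transcript length. Each read here is a single RNA strand, so CPM already counts strands, and this division lowers long transcripts relative to short ones. Per kilobase of the canonical GENCODE transcript, the CPM at 6m was 102 for Tyrobp, 40.5 for Trem2, 36.6 for Fcer1g, 17.1 for Cd68 and 9.36 for Csf1r, whose transcript is long, and between 4.72 and 0.0819 for Tmem119, Laptm5, Aif1, P2ry12 and Cx3cr1 in that order. At 24m Laptm5 was at 13.1 CPM per kilobase, with a range that overlapped those of Csf1r and Tmem119, at 12.6 and 9.79. On this scale the ranges of Trem2 and Fcer1g overlapped at both ages, and those of Fcer1g and Cd68 at 24m. Each place rests on the length of the canonical transcript, 3425 bases for Aif1, and the isoforms read were not examined.

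The calls were read again under other tests, normalisations, filters and with each library left out. Laptm5 was called in all 17 alternatives that tested it, with a log2FC of 1.38 to 1.75. Tyrobp was called in 17 of 18 and Tmem119 in 14 of 18. The number of members called higher was 2 or 3 throughout, and the number called lower was 0 throughout. With library sizes alone, without TMM factors, the median log2FC was 0.59 for the members and 0.10 for all tested genes.

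**Figure D3:**
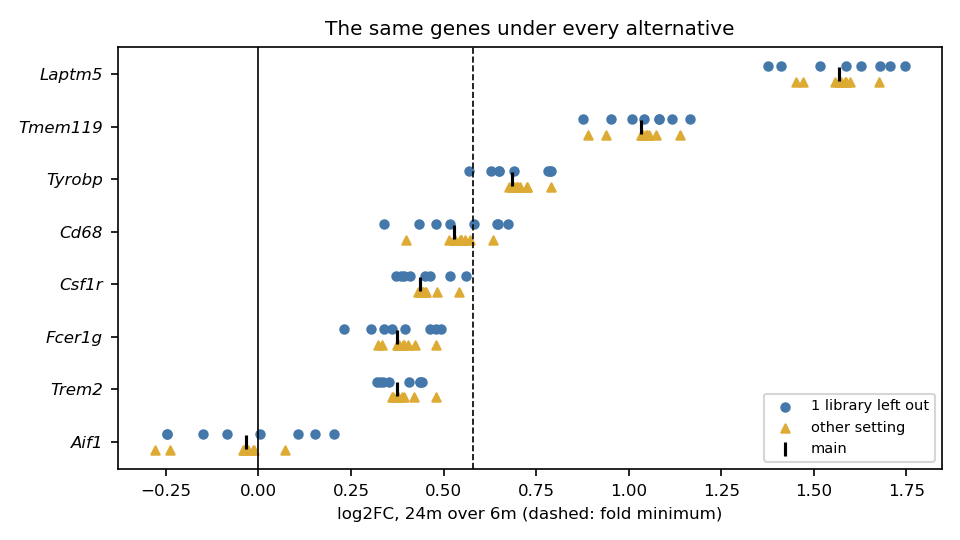
log2FC (horizontal axis, 24m over 6m, log2 scale) of the 8 tested microglial genes as reported (black bars), with a single library left out (blue circles) and under the other settings (yellow triangles); the dashed line is the fold minimum of 0.58. Laptm5 stays between 1.38 and 1.75, Tyrobp crosses the dashed line once at 0.57, and the values of Aif1 lie on both sides of 0.

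The ligands of these receptors were examined next. Cx3cl1, the neuronal membrane-bound ligand of CX3CR1, was measured at 133, 110.3, 126 and 148 CPM at 6m and at 197, 245, 279 and 179 CPM at 24m. All aged libraries were above all young ones, and the log2FC was 0.78 (SE 0.14) with an adjusted p of 0.000262 (edgeR). The ligand thus passed the count filter and its receptor Cx3cr1 did not. Of the ligands of CSF1R, Il34 was not called (log2FC -0.28, adjusted p 0.260, edgeR), and Csf1, at 0 to 3 counts per library at 6m and 5 to 10 at 24m, was under the count filter. Without 6m replicate 2 or 6m replicate 4, Csf1 passed the filter and was called higher (log2FC 1.72 and 1.83, adjusted p 0.0304 and 0.0390, edgeR).

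Other genes of the homeostatic microglial profile were mostly not called, like most tested genes, of which 14.5% were called in either direction. Of 15 listed, 14 were found in the table and 8 were tested, with 0 called higher, 1 called lower and a median log2FC of -0.01. Over all tested genes, 10.3% were called higher and 4.17% lower. At an unadjusted p under 0.05, 1 was higher and 1 lower in edgeR, beside 18.3% and 16% of all tested genes. Neither DESeq2 nor limma-voom called any of the 8 higher. Crybb1, a crystallin that microglia express, fell from 25.7 ± 4.55 to 13.1 ± 3.86 CPM (SD, n = 4), with a log2FC of -0.94 and an adjusted p of 0.0177 (edgeR), and its adjusted p over the alternatives ranged from 0.00968 to 0.0727. The Crybb1 call was lost by DESeq2 and without 6m replicate 2, 24m replicate 2 or 24m replicate 3. Mertk, a receptor for apoptotic cells (log2FC 1.13, adjusted p 0.0744, edgeR), was called higher without 6m replicate 1 or 24m replicate 1, with log2FC of 1.86 and 1.23.

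Among the transcription factors of the myeloid lineage, 3 of 7 were tested, with 1 higher and 1 lower at an unadjusted p under 0.05 in edgeR. Over all tested genes, 18.3% were higher and 16% lower at that threshold, and 10.3% were called higher. Cebpa, a factor of myeloid differentiation, was higher at 24m, at 7.11 ± 2.18 against 17.4 ± 7.15 CPM (SD, n = 4; log2FC 1.23, adjusted p 0.0240, edgeR). The call for Cebpa was lost in 6 of its 17 alternatives, where the adjusted p reached 0.0830. It was not made by DESeq2 (adjusted p 0.0614), by DESeq2 on quantile-normalised counts (adjusted p 0.0812) or by limma-voom (adjusted p 0.081). It was also lost in edgeR without 6m replicate 1, 6m replicate 3 or 24m replicate 2 (log2FC 1.08, 1.17 and 1.11). Spi1, which encodes PU.1, was 11.7 ± 4.57 and 12.7 ± 5.05 CPM (SD, n = 4) and was not called (log2FC 0.09). Mef2c, a factor that neurons also express, had a log2FC of -0.98 and was not called (adjusted p 0.0820, edgeR).

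Downstream of the ITAM adaptors the depth was too low for most genes. Of 14 signalling genes, including Syk, Plcg2, Btk and Vav1, 3 passed the filter and 0 were called by edgeR, DESeq2 or limma-voom. In edgeR 14.5% of all tested genes were called in either direction. At an unadjusted p under 0.05, 1 of the 3 was higher and 0 lower in edgeR, beside 18.3% and 16% of all tested genes. Grb2, an adaptor used in most cell types, was the most abundant at 84.9 to 102 CPM at 6m and 108 to 127 CPM at 24m (log2FC 0.34, adjusted p 0.0706, edgeR). Of the 4 Fc receptor alpha chains, which pair with FCER1G or signal alone, only Fcgr3 was tested. It was 8.71 to 18.5 CPM at 6m and 22.9 to 30.5 CPM at 24m, with a log2FC of 0.83 (SE 0.27) and an adjusted p of 0.0306 (edgeR), which ranged from 0.0134 to 0.148 over the alternatives. The Fcgr3 call was lost without 6m replicate 2, 3 or 4 or 24m replicate 2 or 3, where the log2FC was 0.65 to 0.89, and by DESeq2 and limma-voom.

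Genes of the disease-associated microglial state included 11 tested of 18. Axl, a receptor for apoptotic cells, was higher at 24m (13.5 ± 4.08 against 28.9 ± 5.83 CPM, SD, n = 4; log2FC 1.03, adjusted p 0.00834, edgeR). B2m, the light chain of MHC class I, which most cells make, was higher as well (124 ± 9.39 against 231 ± 23.4 CPM, SD, n = 4; log2FC 0.89, adjusted p 6.77e-06, edgeR). None of the 11 was called lower by edgeR, DESeq2 or limma-voom, and edgeR called 4.17% of all tested genes lower. In edgeR 2 were called higher, beside 10.3% of all tested genes. At an unadjusted p under 0.05, 7 were higher and 0 lower in edgeR, beside 18.3% and 16% of all tested genes. The list median was 0.40. Ctsd and Ctsb, lysosomal proteases found in most brain cells, passed the adjusted p (0.00135 and 0.00255, edgeR) but not the fold minimum, at log2FC 0.46 and 0.40. Ctsd shares 808 exon bases with Gm49369 on the same strand, and Ctsb shares 1184 with Fdft1 on the opposite strand. How reads in these bases were assigned is not stated. Apoe, which astrocytes also express, was the most abundant gene of the list at 4101 ± 110.5 and 4242 ± 350.3 CPM (SD, n = 4) and was not called (log2FC 0.05). Cst7, an inhibitor of cysteine proteases and a marker of the activated state, was at 0 in every 6m library and at 2, 3, 2 and 8 counts in the 24m libraries, under the filter. Lgals3, which encodes galectin-3 (log2FC 0.86, adjusted p 0.110, edgeR), was called higher without 24m replicate 4 (log2FC 1.09).

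Of the C1q chains and microglial complement receptors, 4 of 6 were tested and 0 called by edgeR, DESeq2 or limma-voom. In edgeR 10.3% of all tested genes were called higher and 4.17% lower. At an unadjusted p under 0.05 all 4 were higher in edgeR, beside 18.3% of all tested genes. The median log2FC of the 4 was 0.49. C1qa, which microglia make in the brain, was 145 to 185 CPM at 6m and 196 to 317 CPM at 24m, and C1qc, another chain of the same molecule, was 133 ± 7.72 and 189 ± 23.6 CPM (SD, n = 4). Both passed the adjusted p (0.0119 and 0.00419, edgeR) with log2FC of 0.47 and 0.51, under the fold minimum. C1qa reached it, at 0.58, without 24m replicate 4, and Itgb2, the beta chain of complement receptor 3 (log2FC 1.18, adjusted p 0.0535, edgeR), was called higher without 6m replicate 2 or 24m replicate 1, with log2FC of 1.48 and 1.31.

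**Figure D4:**
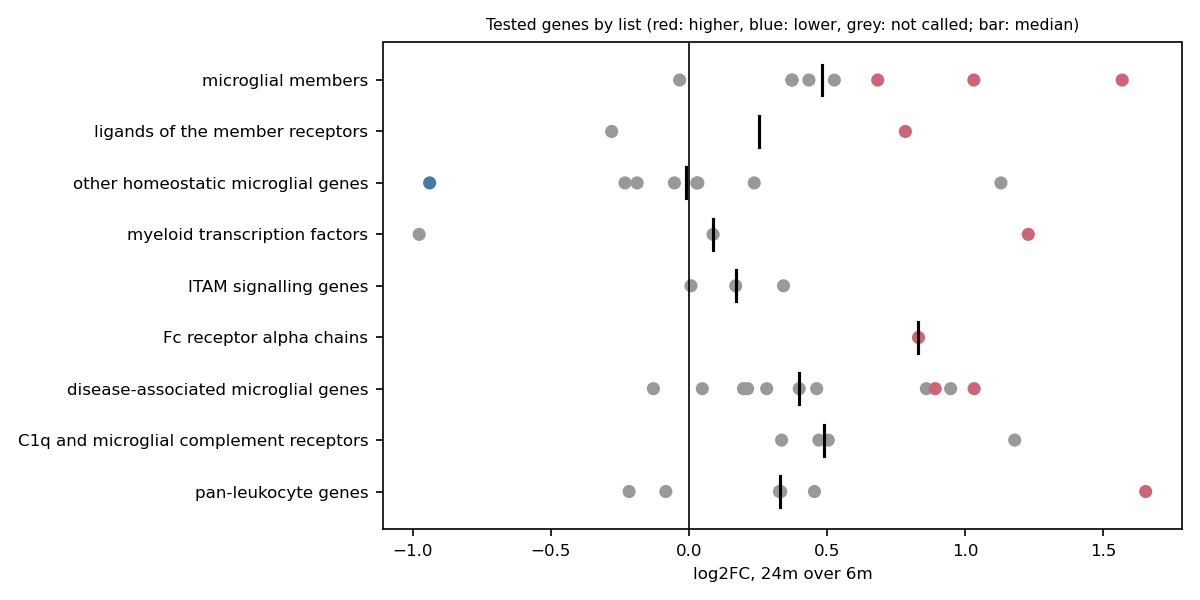
log2FC (horizontal axis, 24m over 6m, log2 scale) of the tested genes of the microglial members and of 8 related lists, with genes called higher in red, called lower in blue and not called in grey, and the median of each list as a black bar. The members have a median of 0.48 and the other homeostatic genes a median of -0.01.

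Leukocyte genes differed in level by list. The pan-leukocyte genes, named for being shared among leukocytes, summed to 315 to 355 CPM at 6m and 300 to 454 CPM at 24m. Over all tested genes, edgeR called 10.3% higher and 4.17% lower. Of 11 pan-leukocyte genes 6 were tested, and Cd52, a surface peptide of leukocytes, was called higher (9.12 ± 3.54 against 32.6 ± 18.4 CPM, SD, n = 4; log2FC 1.65, adjusted p 0.00385, edgeR), although 24m replicate 4 was below the highest 6m library (13.7 CPM). Coro1a, a leukocyte actin regulator and the most abundant of these genes, was not called (log2FC -0.22). All 8 markers of border macrophages, which line the vessels and meninges, were under the filter. Their summed level was 8.62 to 16.3 CPM at 6m and 7.67 to 21.3 CPM at 24m, and Lyve1 was at 0 in every library.

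Of 10 monocyte and neutrophil markers, 2 were tested. Lyz2, the lysozyme of macrophages and neutrophils, which activated microglia also express, was 9.85 to 16.2 CPM at 6m and 38.4 to 57.9 CPM at 24m (log2FC 1.76, adjusted p 1.06e-05, edgeR). Ly6c2, a surface protein of inflammatory monocytes that has near-identical paralogs, was lower (log2FC -1.51, adjusted p 0.0127, edgeR; -1.23 and not called without 24m replicate 4, and not called by DESeq2), and Ccr2, the defining monocyte receptor, was at 0 in every library. The summed level of the list was 23.5 to 43.6 CPM at 6m and 46.8 to 91.5 CPM at 24m, a separation carried by Lyz2. Of 10 lymphocyte markers only Ighm, the heavy chain of IgM, was tested. It was called higher (log2FC 1.97, adjusted p 0.0218, edgeR) through 24m replicate 1, and without that library its log2FC was -0.05. The Ighm call was also lost without 6m replicate 3 or 6m replicate 4 (log2FC 1.99 and 1.93). Cd3e, Cd8a and Ms4a1, which define T and B cells, were at 0 in every library. Without 24m replicate 1, 3 microglial members were again called higher, with a median log2FC of 0.39 over the 9 members then tested. The part of these other cells in the member values was not tested.

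The hemisphere was also checked against markers of its main cell types, which were present in every library. For comparison, edgeR called 10.3% of all tested genes higher and 4.17% lower. Of 7 neuron markers 3 were higher (Snap25, Slc17a7 and Gad1), and Tubb3 passed the adjusted p in the other direction but not the fold minimum (log2FC -0.30, adjusted p 0.0353, edgeR). DESeq2 called 2 of the 7 higher, without Snap25. Of the 6 tested astrocyte markers 3 were higher (Gfap, Slc1a3 and Gja1) and Slc1a2 was lower, a call that DESeq2 did not make. Of 7 oligodendrocyte markers 2 were higher, with summed levels of 1937 to 2496 CPM at 6m and 2652 to 3507 CPM at 24m. Of 3 tested endothelial markers 0 were called by edgeR. At an unadjusted p under 0.05, 0 were higher and 1 lower in edgeR, beside 18.3% and 16% of all tested genes. Among the 3, limma-voom called 1 lower and DESeq2 called 0. All 5 red blood cell genes were lower by edgeR (Hba-a1, Hba-a2, Hbb-bs, Hbb-bt and Alas2), 4 of them by DESeq2 and 3 by limma-voom, with summed levels of 6090 to 10030 CPM at 6m and 3350 to 6283 CPM at 24m. Hba-a1 and Hba-a2 had nearly equal counts in every library, such as 1820 and 1786 in 6m replicate 1. Whether reads were counted for both is not stated, so the 5 calls and the summed levels may count the same reads repeatedly. With a library left out, the calls of Slc17a7, Gad1, Slc1a2, Hba-a2 and Alas2 were lost in at least 1 fit each, while Rbfox3, Syt1, Cnp, Mal and Ly6c1 gained a call in at least 1. The part of these shifts in the member values was not tested.

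Across the 8 libraries, the genes whose level was most like the summed level of the 10 members were Syt13 (Pearson's r = 0.996), a synaptotagmin, B2m (r = 0.974), H2-D1 (r = 0.971), an MHC class I heavy chain, Poldip3 (r = 0.966) and Cdkn2aipnl (r = 0.966). The comparison was made on log2 CPM over genes with a mean count of at least 20. The 8 points fall into the age groups and share library and depth, so these values are a description of likeness and carry no p.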

How the data were processed

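Direct RNA libraries (ONT) from 4 brain hemispheres at 6m and 4 at 24m were analysed, grouped by the age in the labels. The authors mapped the reads to GRCm39 with minimap2 (version 2.24 in the submitters' processing notes) and used featureCounts for quantification. What they deposited is the table of raw counts for each Ensembl gene, without normalisation. Strand, overlap and multi-mapping settings are not given in the sources used here. The labels name a polyA kit where the methods of the study describe direct RNA sequencing, and the methods were followed.

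Symbols and positions come from GENCODE on GRCm39 (22281 of 22430 genes matched, 149 not), and promoters from RefSeq on GRCm38.p6. Genes with a mean count over 5 (9375; 5754 of 22430 genes had no count) were fitted with edgeR 4.0.16 in R 4.3.3 (TMM, quasi-likelihood test, age only), with Benjamini-Hochberg adjustment over all tested genes. SE is the absolute log2FC divided by the square root of F, and log2 CPM for the likeness values had a prior count of 2. Alternatives used DESeq2 1.42.0, limma 3.58.1, other normalisations and filters, adjusted p alone, a replicate block and each library left out. The scripts were tested on simulated data. Depth was 573152 to 1255424 counts per library, and intervals on shares cover counting error only.

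The members and lists were chosen with earlier results of these data known. All 10 members are named. From the other lists, each called gene is named, or else the most abundant, and for lists of other cell types only called genes. The 5 genes most like the members' sum are named by Pearson's r. Spi1, Apoe, Coro1a, Ctsd, Ctsb, Cst7, Lgals3, Mertk, Itgb2, C1qc, Csf1, Il34, Mef2c, Tubb3, Hmgxb3, Med12l and the markers at 0 were added for their role or after their values were seen. One listed homeostatic gene had no matching symbol and was not used here, and some genes that this rule would name are not reported here.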

Additional observations from a re-analysis of the deposited data

Results flagged for a closer look

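In 56 groups of 4 libraries, the gap between the highest or the lowest library and its nearest neighbour was compared with the range of the group (Dixon's test at the 95% level), and 3 groups passed. Chance alone passes about 1 in 20 groups. Cx3cr1 was at 1.23 CPM in 6m replicate 1, a single count, with the other 3 libraries of that age at 0. The library total of 6m replicate 2 was 573200 counts, against 819000 to 843700 in the other 6m libraries. Among the 6m libraries it was the highest for 4 of the 8 tested members (Csf1r, Tmem119, Trem2 and Fcer1g) and the lowest for 3 (Tyrobp, Laptm5 and Cd68), and without it Laptm5 was still called and Tyrobp fell under the fold minimum. The summed CPM of the lymphocyte markers was 810.9 in 24m replicate 1, against 39.7 to 83.2 in the other 24m libraries, and this library also had the highest summed level of the microglial members, at 422 CPM.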

How the results depend on the processing

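The number of members called higher was 2 or 3 and the number called lower 0 in all 18 alternatives. Aif1, not called anywhere, had a log2FC of 0.073 with library sizes alone and of -0.25 to 0.21 with a library left out, and Ighm had -0.051 to 2.35 with a library left out. Over all tested genes, DESeq2 called 629 higher and 205 lower, and 547 were higher by DESeq2 on quantile-normalised counts. The number lower was 223 with library sizes alone, 222 with more than 5 counts in every library and 883 by adjusted p alone. With a library left out, 713 to 1132 genes were higher and 276 to 462 lower. In the 8 related microglial and signalling lists, 6 genes were higher and 1 lower, beside 10.3% and 4.17% of all tested genes. The genes tested were 2 ligands, 8 homeostatic, 3 transcription factors, 3 ITAM signalling, 1 Fc receptor, 11 disease-associated, 4 complement and 6 pan-leukocyte. The number higher was 10 with a total count over 5, with no filter and by adjusted p alone, and 3 with more than 5 counts in every library. Over all genes, the same settings called 1066 of 13926, 1124 of 16676, 1155 of 9375 and 728 of 6630 higher. The number lower was 0 by DESeq2 and 0 to 1 with a library left out. Replicate numbers are shared between the ages, and same-numbered libraries showed no clear common deviation (correlations of -0.16 to 0.07). Only in replicate 1 was the same-number value (0.065) above the best other (-0.003). With 4 libraries per age these correlations cannot exclude a pairing by number. With the replicate block, 3 members, 940 genes and 6 list genes were higher, and 0 members, 368 genes and 1 list gene were lower. Depth limits the low genes: Cx3cr1 and P2ry12 were under the count filter, and genes near 10 CPM rest on about 5 to 20 counts per library.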
